A study of Homo sapiens with 4 samples.

Results

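Oxidative phosphorylation (OXPHOS) genes are described here in the human tumour cells of a xenograft study. The 104 members were taken by name from 36601 human features. They are genes named for subunits of respiratory complexes I to IV and of the ATP synthase, complex V, with 91 in the nucleus and 13 on mitochondrial DNA (MT- genes). The 91 include 3 non-coding genes that share such a name and enter the nuclear sum but no complex. The series set out to study both drugs in pancreatic tumours, with lactic acid and the tumour surroundings in view. PANC-1 cells, an established human line of pancreatic ductal adenocarcinoma, were grown under the skin of nude mice. The agrimoniin library came from a tumour treated with agrimoniin, an ellagitannin of agrimony plants. The erlotinib library came from a tumour treated with erlotinib, a drug that blocks the EGFR kinase, and the combination library from one given both. The control library came from a tumour labelled as control, and the series' design text names the carrier for that arm. Where samples are labelled erlotinib that text writes cyranin, and the group names here are those of the samples. Doses, times, mouse ages and the number of tumours per library are not stated in the labels used here. Nude mice have no functional thymus and lack mature T cells, while macrophages and other innate cells remain. Each group is 1 library, so nothing here can be checked against replicates, and a difference is one between libraries.

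The respiratory chain sits in the inner mitochondrial membrane. Complex I oxidises NADH and complex II oxidises succinate, and both pass electrons to ubiquinone. Complex III hands them by cytochrome c to complex IV, which reduces oxygen. The proton gradient built by complexes I, III and IV drives ATP synthesis by complex V. Complex II is encoded wholly in the nucleus, and the other complexes mix nuclear with mitochondrial subunits. Mitochondrial DNA is transcribed from both strands as long RNAs that are cut into messengers, most of which receive a short poly(A) tail. Tumours that turn much of their glucose into lactate can still respire, and pancreatic tumour cells differ widely in how far they rely on respiration.

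Values are unique molecular identifier (UMI) counts, each standing for a captured RNA molecule, from single-cell libraries made with a 3 prime kit per the labels. The 4 libraries held 1056 barcodes and shared none. Each barcode had 27 bases, which is not the layout of the kit named in the labels. The labels aimed at 8000 cells, and how barcodes were called is not known here. Every barcode held UMIs of both species, and its human UMIs are called its human part, which need not be a single cell. After filtering there were 283, 292 and 245 human parts in agrimoniin, erlotinib and combination and 193 in control, with 3690705, 3775711, 3109510 and 2420470 human UMIs. The keratin genes KRT8 and KRT18, epithelial markers, were present in all 4 libraries at 36.0 to 65.4 counts per 1000000 human UMIs (CPM), but the ductal keratins KRT19 and KRT7 stayed at 0 to 1.24 CPM. The leukocyte genes CD3E and LYZ were at 0 and PTPRC at 0 to 0.826 CPM, while CD68 had 7.68 to 9.09 CPM. Of the human fibroblast markers only COL3A1, at 99.2 to 122 CPM, was above 0.826 CPM, and the 3 endothelial markers together had at most 0.826 CPM.

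Some mitochondrial genes lie on top of each other, which bears on how their reads can be assigned, and the junctions that matter are shown here. MT-ATP8 and MT-ATP6, both subunits of complex V, share 46 bases (GRCh38, mitochondrial chromosome, 8527 to 8572, plus strand), and MT-ND4L and MT-ND4 share 7 bases (10760 to 10766). MT-ND6 is the only member on the other strand, and its gene ends against that of MT-ND5 at 14149. In the first pair of sequences capitals mark the shared bases, and in the last they mark MT-ND6, which reads in the opposite direction. All are plus strand, 5′ to 3′, from the GENCODE 29 transcripts.
MT-ATP8 and MT-ATP6, chrM:8497-8602: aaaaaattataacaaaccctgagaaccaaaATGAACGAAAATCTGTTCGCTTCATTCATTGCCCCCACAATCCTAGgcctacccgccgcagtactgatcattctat
MT-ND4L and MT-ND4, chrM:10730-10796: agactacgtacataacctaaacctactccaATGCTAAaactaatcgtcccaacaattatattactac
MT-ND5 and MT-ND6, chrM:14119-14178: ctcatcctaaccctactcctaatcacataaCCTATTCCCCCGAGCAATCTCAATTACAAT
The sources used here do not say how the authors' counting treated shared bases and strand. The splits between MT-ATP8 and MT-ATP6 and between MT-ND4L and MT-ND4, and the low counts of MT-ND6, are therefore uncertain.

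Mitochondrially encoded OXPHOS RNA took a smaller share of the tumour cells' UMIs in each treated library than in control, while the nuclear members together were level or slightly higher. The 13 MT- genes made up 9.73% of human UMIs in agrimoniin, 9.26% in erlotinib, 9.11% with both drugs and 10.8% in control. Their summed CPM relative to control had a ratio of 0.902 (0.898 to 0.907) for agrimoniin, 0.858 (0.854 to 0.862) for erlotinib and 0.844 (0.840 to 0.849) for combination. Intervals in parentheses are exact 95% intervals that cover counting error only, and PCR or cell-to-cell variation is not in them. The 3 comparisons share the control library, and a control library that was unusual would shift every one of them. On the log2 scale these are -0.15, -0.22 and -0.24. Fewer mitochondrial transcripts per cell and a different mix of sampled cells cannot be told apart in these sums.

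**Figure D1:**
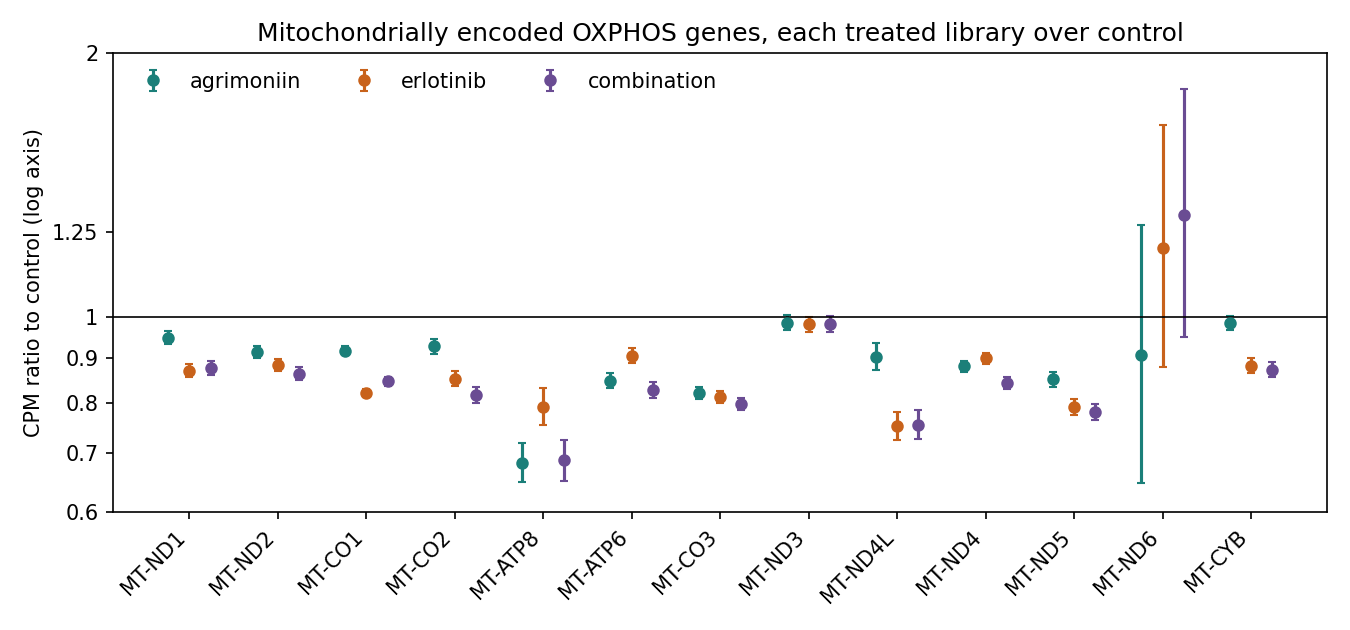
Ratio of CPM in each treated library to control for the 13 mitochondrially encoded OXPHOS genes, on a log axis, with exact 95% intervals (counting error only). Apart from MT-ND6, all sit below 1, MT-ND3 and agrimoniin's MT-CYB close to it, and MT-ATP8 lies lowest in agrimoniin and combination.

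Of the 13 MT- genes, 13 had a ratio below 1 in agrimoniin, 12 in erlotinib and 12 in combination, where 55.3%, 53.3% and 53% of all tested genes had a ratio above 1. At least 20% lower than control were 1, 3 and 4 MT- genes, against a background of 7.03%, 9.3% and 9.41% of all tested genes. In the other direction only MT-ND6 was at least 25% higher, in combination, where the background was 10.4%. The MT- genes are processed from shared precursors, so they are not independent of each other.

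The complex IV core subunits were lower in every treated library. MT-CO1, the catalytic subunit that holds the oxygen-reducing centre, had 21745 CPM in agrimoniin, 19458 in erlotinib, 20061 with both drugs and 23718 in control. Its ratio was 0.917 (0.907 to 0.927) for agrimoniin, 0.820 (0.811 to 0.829) for erlotinib and 0.846 (0.836 to 0.855) for combination. MT-CO2, which accepts electrons from cytochrome c, had 6607 CPM in agrimoniin, 6069 in erlotinib, 5812 with both drugs and 7128 in control, with its lowest ratio at 0.815 (0.798 to 0.833) in combination. MT-CO3 had 9831 CPM in agrimoniin, 9728 in erlotinib, 9556 with both drugs and 11986 in control, with ratios of 0.820, 0.812 and 0.797 in the same order. Control was highest for all 3 genes, and MT-CO3 differed least between the treated libraries.

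The complex V subunits differed between the drugs. MT-ATP8, a small membrane subunit, had 809 CPM in agrimoniin, 938 in erlotinib, 815 with both drugs and 1184 in control. Its ratio was 0.683 (0.649 to 0.719) for agrimoniin, 0.792 (0.754 to 0.832) for erlotinib and 0.688 (0.652 to 0.726) for combination. MT-ATP6, the proton-channel subunit that overlaps it, had 6073 CPM in agrimoniin, 6484 in erlotinib, 5931 with both drugs and 7166 in control, with ratios of 0.848 (0.831 to 0.865), 0.905 (0.887 to 0.923) and 0.828 (0.811 to 0.845). For both genes the erlotinib library lay between control and the other treated libraries. As both share the bases shown above, reads assigned to one gene instead of the other would change each value but not their sum. Shared reads that were dropped or counted for both genes would change the sum too, and the treatment of such reads is not known here. The sum of both had ratios of 0.824 (0.809 to 0.840), 0.889 (0.873 to 0.905) and 0.808 (0.792 to 0.824).

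The complex I subunits were uneven. MT-ND5, a proton-pumping membrane subunit, had 6067 CPM in agrimoniin, 5641 in erlotinib, 5573 with both drugs and 7135 in control, with ratios of 0.850, 0.791 and 0.781. MT-ND4L had 1972 CPM in agrimoniin, 1644 in erlotinib, 1650.4 with both drugs and 2186 in control, a ratio of 0.902 (0.871 to 0.935) in agrimoniin but 0.752 (0.725 to 0.781) for erlotinib and 0.755 (0.727 to 0.785) for combination. MT-ND4 had 11301 CPM in agrimoniin, 11544 in erlotinib, 10816 with both drugs and 12849 in control, and here the combination was lowest, with 0.842 (0.829 to 0.855). The 2 libraries with erlotinib stood together below agrimoniin for MT-ND4L and MT-ND5, and not for MT-ND4. MT-ND1 and MT-ND2, which form part of the membrane arm, had ratios of 0.949 and 0.913 in agrimoniin, 0.870 and 0.882 in erlotinib, and 0.875 and 0.863 in combination. MT-ND3 differed least, with 7031 CPM in agrimoniin, 7001 in erlotinib, 7008 with both drugs and 7130.4 in control, and each of its ratios, 0.986 (0.967 to 1.01), 0.982 (0.963 to 1.00) and 0.983 (0.963 to 1.00), had an interval that includes 1. MT-ND6, the light-strand member, had only 87, 118 and 106 UMIs in agrimoniin, erlotinib and combination and 63 in control, and its ratios of 0.906 (0.647 to 1.27), 1.20 (0.877 to 1.66) and 1.31 (0.950 to 1.82) have intervals that hold 1. In complex III, MT-CYB, the cytochrome b subunit, had 7551 CPM in agrimoniin, 6760.3 in erlotinib, 6689 with both drugs and 7670.0 in control, so agrimoniin lay close to control, with 0.985 (0.966 to 1.00), and the libraries with erlotinib did not, with 0.881 (0.865 to 0.898) and 0.872 (0.855 to 0.890).

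Because the MT- genes did not move by one factor, their mix differed between libraries. MT-ND3 took 7.22% in agrimoniin, 7.56% in erlotinib, 7.69% with both drugs and 6.61% in control of all MT- UMIs. MT-ATP8 took 0.831% in agrimoniin, 1.01% in erlotinib, 0.895% with both drugs and 1.10% in control, and MT-CO3 took 10.1% in agrimoniin, 10.5% in erlotinib, 10.5% with both drugs and 11.1% in control. Set against control, the share of MT-ND3 within MT- UMIs had ratios of 1.09 (1.07 to 1.11), 1.14 (1.12 to 1.17) and 1.16 (1.14 to 1.19). That of MT-ATP8 had ratios of 0.757 (0.719 to 0.797), 0.923 (0.878 to 0.970) and 0.815 (0.772 to 0.860). These shares do not depend on how many nuclear transcripts each library held.

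Single human parts spread far more than the libraries did. The median part gave 9.65% of its human UMIs to MT- genes in agrimoniin, 8.97% in erlotinib, 9.13% in combination and 10.1% in control, and the range between the 25th and 75th percentiles ran from 6.81% to 13.6%, 6.35% to 12.6%, 6.60% to 12.0% and 7.56% to 15.0% in that order. The lowest parts were at 0.610%, 0.248%, 0.448% and 0.0485%, so a few parts had nearly no mitochondrial RNA. The distributions overlap over almost their whole length, and the libraries differ more at the 75th percentile than at the median. Variance between parts was 294, 302 and 271 times what binomial sampling at each part's depth would give in agrimoniin, erlotinib and combination, and 360 times in control. The 25% limit used to filter parts is itself a limit on MT- UMIs. It removed 14 of 297 barcodes in agrimoniin, 14 of 306 in erlotinib and 6 of 251 in combination, against 9 of 202 in control, which is 4.71% (2.60 to 7.78), 4.58% (2.52 to 7.56), 2.39% (0.882 to 5.13) and 4.46% (2.06 to 8.29) with exact Clopper-Pearson 95% intervals. Without that limit the ratios of the MT sum were 0.900, 0.873 and 0.827.

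**Figure D2:**
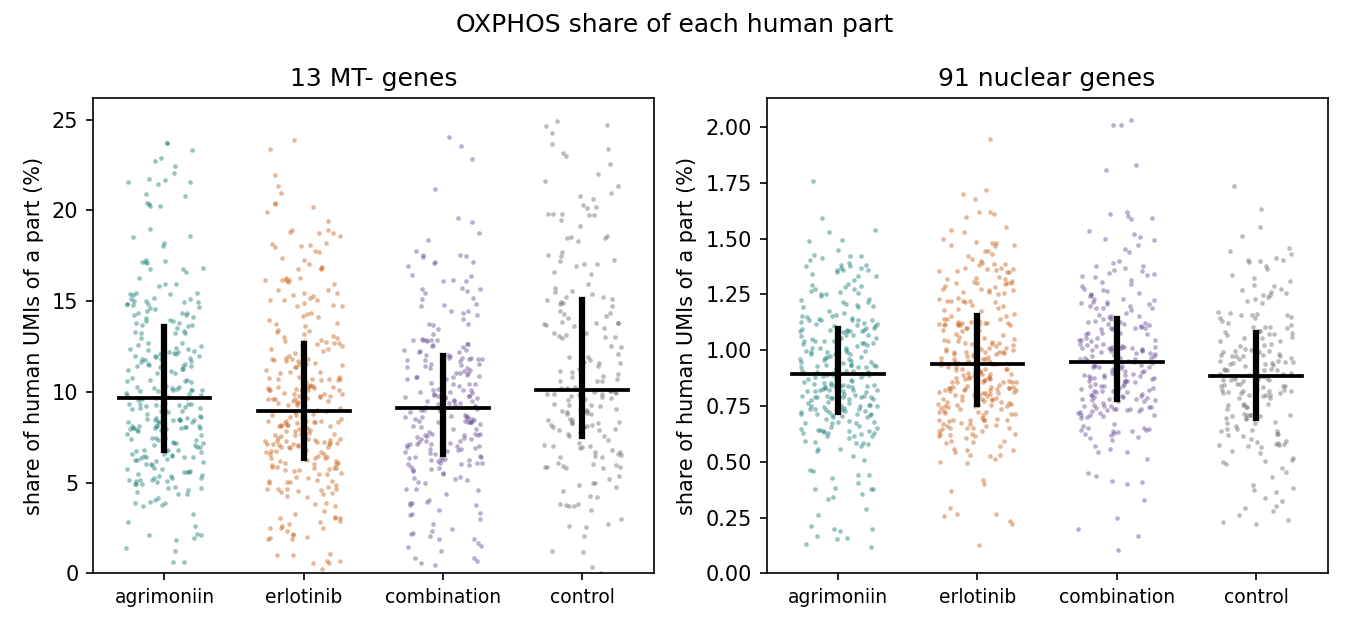
Share of a human part's UMIs from the 13 MT- genes (left) and the 91 nuclear OXPHOS genes (right), as percent, 1 point per part, for agrimoniin, erlotinib, combination and control. Thick bars span the 25th to 75th percentiles and horizontal lines are medians; the 4 libraries overlap widely, with medians of 8.97% to 10.1% (MT-) and 0.885% to 0.947% (nuclear).

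Depth and the host share of a barcode moved with the MT- share. Across parts the MT- share was inversely related to the logarithm of human UMIs, with Pearson's r of -0.35 in agrimoniin, -0.19 in erlotinib, -0.20 in combination and -0.29 in control, as a description over 283, 292, 245 and 193 parts that share a library and a common denominator. In parts with under 8000 human UMIs the MT- share was 12.7%, 11.6% and 10.2% in agrimoniin, erlotinib and combination, against 13.7% in control. In parts with over 16000 it was 7.70%, 8.26% and 7.94%, against 9.66% in control. At 8000 to 16000 human UMIs, a window chosen after the data were seen, it was 10.8%, 9.61% and 9.61%, against 11.0% in control, and the ratio for agrimoniin became 0.981 while those for erlotinib and combination were 0.874 and 0.874. Barcodes with at least 75% human UMIs were 52.7% of parts in agrimoniin, 52.4% in erlotinib and 66.5% in combination, but 34.2% in control, and in these the MT- share was 9.12%, 8.61% and 8.82%, against 9.99% in control. The MT sum thus stayed lower than control in each treated library within these barcodes. The part that the share of host RNA plays in the remaining difference was not tested.

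**Figure D3:**
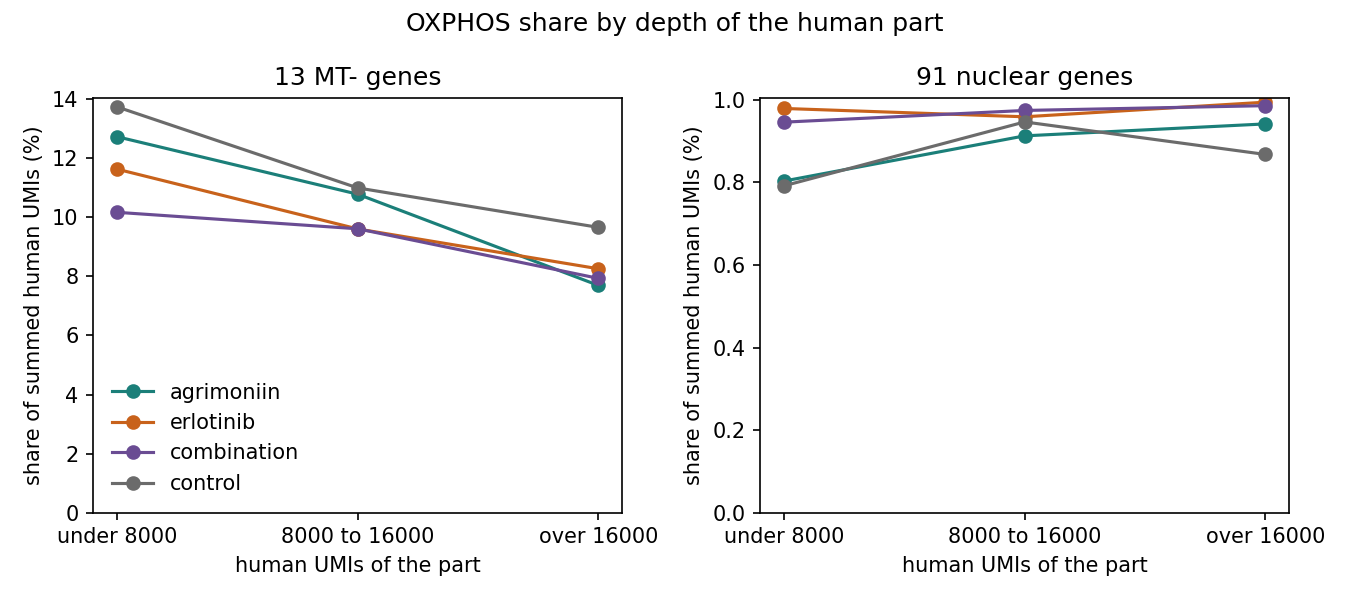
Summed share of human UMIs (percent) from MT- genes (left) and nuclear OXPHOS genes (right) in parts grouped by human UMIs, for agrimoniin, erlotinib, combination and control. MT- shares fall with depth in all 4 libraries; the nuclear share of control is highest in the middle group, at 0.947%.

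The 91 nuclear members together were near control in agrimoniin and higher in erlotinib and combination. They made up 0.915% of human UMIs in agrimoniin, 0.976% in erlotinib, 0.976% with both drugs and 0.900% in control. The ratios of summed CPM were 1.02 (0.999 to 1.03), 1.08 (1.07 to 1.10) and 1.08 (1.07 to 1.10). Since MT- UMIs are part of the denominator, a lower MT- share raises all other genes slightly. Per UMI of the other human genes the nuclear members took 1.01% in agrimoniin, 1.08% in erlotinib, 1.07% in combination and 1.01% in control, and the ratios were 1.00, 1.07 and 1.06. In parts with 8000 to 16000 human UMIs they were 0.964, 1.01 and 1.03, from nuclear shares of 0.913% in agrimoniin, 0.959% in erlotinib, 0.974% in combination and 0.947% in control. In parts with under 8000 human UMIs the nuclear shares were 0.803%, 0.979% and 0.946% in agrimoniin, erlotinib and combination, against 0.792% in control. In parts with over 16000 they were 0.942%, 0.995% and 0.986%, against 0.868% in control. The nuclear difference for the libraries with erlotinib was thus smallest in the middle depth group. For each nuclear OXPHOS UMI there were 10.6 MT- UMIs in agrimoniin, 9.48 in erlotinib, 9.33 in combination and 12.0 in control.

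Of the 91 nuclear members, 76 had a mean of at least 20 CPM over the 4 libraries and 15 did not. NDUFA8, at 21.4 CPM, was the last to pass that minimum and ATP5F1D, at 19.8, the first to miss it. Among the 76, a ratio above 1 was seen for 44 in agrimoniin, 54 in erlotinib and 52 in combination, beside 55.3%, 53.3% and 53% of all 7172 tested genes. At least 25% higher were 5, 15 and 10 members, against 10.6%, 11.1% and 10.4% of all genes. At least 20% lower were 4, 1 and 4 members, against 7.03%, 9.3% and 9.41%. The median log2 ratio of the 76 was 0.05 in agrimoniin, 0.12 in erlotinib and 0.07 in combination, where all tested genes had medians of 0.03, 0.02 and 0.02.

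**Figure D4:**
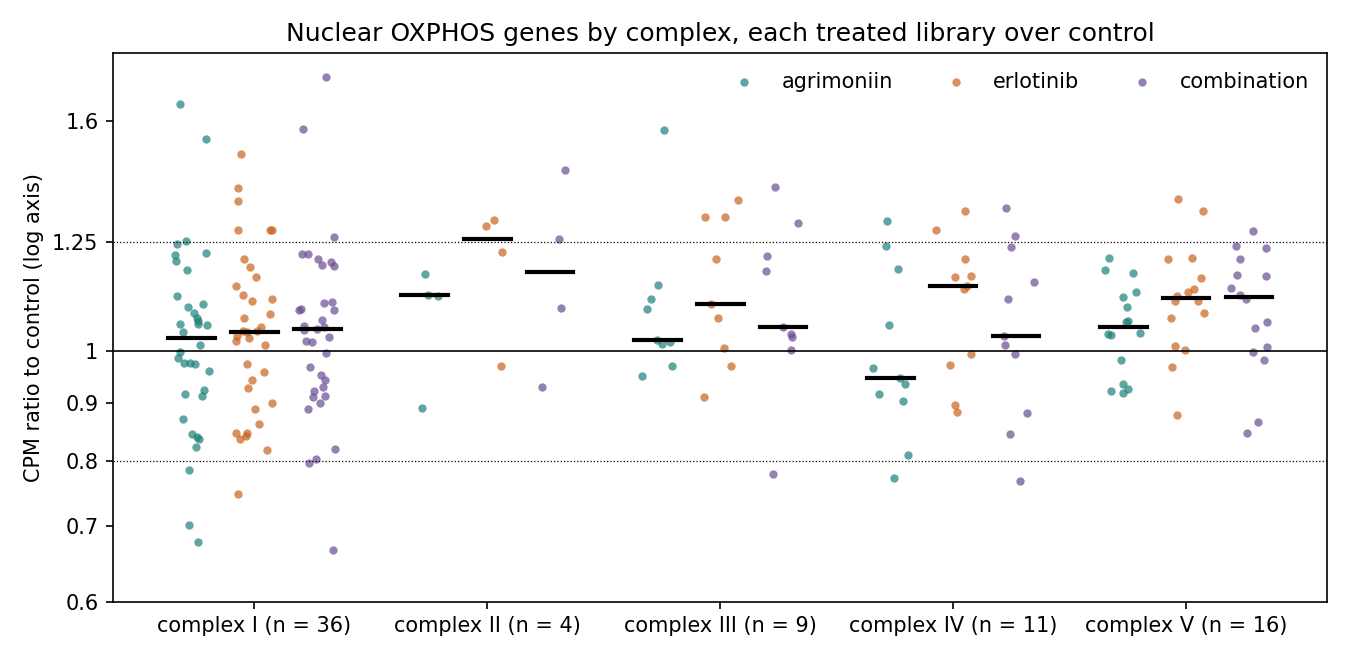
Ratio of CPM in each treated library to control (log axis) for the 76 nuclear OXPHOS genes with a mean of at least 20 CPM, by complex; points are genes, black lines are medians and dotted lines mark 25% higher and 20% lower. Complex I genes lie on both sides of 1 in all 3 comparisons, while 14 of 16 complex V genes lie above 1 in erlotinib.

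Complex V nuclear genes scattered least, with a standard deviation of their log2 ratios of 0.12, 0.15 and 0.17 in agrimoniin, erlotinib and combination, beside 0.20, 0.19 and 0.20 over all 76 nuclear members. Their sum was 3294 CPM in agrimoniin, 3564 in erlotinib, 3561 with both drugs and 3154 in control, with ratios of 1.04 (1.01 to 1.07), 1.13 (1.10 to 1.16) and 1.13 (1.10 to 1.16), and 11, 14 and 12 of 16 tested genes had a ratio above 1, beside 55.3%, 53.3% and 53% of all genes. ATP5PF, a stalk subunit known as coupling factor 6, had 317 CPM in agrimoniin, 396 in erlotinib, 380.4 with both drugs and 297 in control. Its ratio was 1.33 (1.22 to 1.46) for erlotinib and 1.28 (1.16 to 1.41) for combination, but 1.06 (0.970 to 1.17) in agrimoniin. ATP5MC2, which encodes the c subunit of the rotor ring, had 293 CPM in agrimoniin, 361 in erlotinib, 369.8 with both drugs and 298 in control, with ratios of 1.21 (1.11 to 1.33) for erlotinib and 1.24 (1.13 to 1.36) for combination. Both genes were close to control in agrimoniin and higher in the libraries with erlotinib. ATP5MC1 and ATP5MC3 encode the same mature c subunit, but differed from it in their values. ATP5MC1 had ratios of 1.12, 1.00 and 1.01, and ATP5MC3 had 0.923, 1.01 and 0.866. ATP5F1B, the catalytic beta subunit, had 246 CPM in agrimoniin, 291 in erlotinib, 293 with both drugs and 263 in control, and ATP5F1A, the alpha subunit, had 153 CPM in agrimoniin, 126 in erlotinib, 138 with both drugs and 130.1 in control. These partners of the same hexamer thus differed in which library was highest. ATP5MF, a membrane subunit, had 107 CPM in agrimoniin, 121 in erlotinib, 101 with both drugs and 88.4 in control, with 1.37 (1.16 to 1.61) in erlotinib. ATP5F1E, the epsilon subunit of the rotor, had 655 CPM in agrimoniin, 668 in erlotinib, 693 with both drugs and 617 in control, and its ratios were 1.06 (0.995 to 1.13), 1.08 (1.01 to 1.15) and 1.12 (1.05 to 1.20).

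Complex IV nuclear genes had a sum of 1366 CPM in agrimoniin, 1519.7 in erlotinib, 1509.9 with both drugs and 1380.3 in control, with ratios of 0.990 (0.947 to 1.03), 1.10 (1.05 to 1.15) and 1.09 (1.05 to 1.14). COX7A2L, whose product helps complexes III and IV join into supercomplexes, was highest in combination, with 268 CPM in agrimoniin, 334 in erlotinib, 371 with both drugs and 277 in control. Its ratio was 1.34 (1.22 to 1.48) in combination and 1.21 (1.10 to 1.33) in erlotinib, against 0.967 (0.876 to 1.07) in agrimoniin. COX5A, a structural subunit, had 91.3 CPM in agrimoniin, 118 in erlotinib, 90.7 with both drugs and 118 in control, so that agrimoniin and combination lay together below control and erlotinib did not, with ratios of 0.773 (0.658 to 0.908), 0.768 (0.649 to 0.908) and 0.995 (0.856 to 1.16) in the order named. COX6B1, which faces the intermembrane space, was highest in agrimoniin, with 159.6 CPM in agrimoniin, 139.8 in erlotinib, 141 with both drugs and 122 in control and a ratio of 1.31 (1.13 to 1.51) there. COX8A had 118 CPM in agrimoniin, 111 in erlotinib, 98.4 with both drugs and 95.4 in control, and its agrimoniin ratio was 1.24 (1.06 to 1.46). COX6A1 had 114 CPM in agrimoniin, 124 in erlotinib, 124 with both drugs and 140.5 in control, with 0.810 (0.701 to 0.937) in agrimoniin. The nuclear and MT- sums of complex IV differed in side: the nuclear sum was level or higher and the MT- sum lower, with MT- ratios of 0.891 (0.884 to 0.899), 0.823 (0.816 to 0.830) and 0.827 (0.820 to 0.834). The nuclear sum counts COX7A2L, which weighs heavily in its difference for combination, and the sum without that gene was not computed. Of 11 tested nuclear genes of complex IV 4, 7 and 7 had a ratio above 1, beside 55.3%, 53.3% and 53% of all genes.

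Complex III nuclear genes summed to 1091 CPM in agrimoniin, 1162 in erlotinib, 1135 with both drugs and 1044 in control, with ratios of 1.04 (0.994 to 1.10), 1.11 (1.06 to 1.17) and 1.09 (1.03 to 1.14). CYC1, the cytochrome c1 subunit, had 75.9 CPM in agrimoniin, 63.6 in erlotinib, 56.9 with both drugs and 48.3 in control. Its ratio was 1.57 (1.26 to 1.96) for agrimoniin, 1.31 (1.05 to 1.65) for erlotinib and 1.18 (0.927 to 1.50) for combination, so the last holds 1. UQCRQ, a small subunit (ENSG00000164405, chromosome 5, 132866560 to 132868031), had 201 CPM in agrimoniin, 269 in erlotinib, 239.6 with both drugs and 197 in control, with 1.36 (1.22 to 1.52) for erlotinib and 1.22 (1.08 to 1.37) for combination. Agrimoniin sat with control for UQCRQ. UQCR11 had 46.9 CPM in agrimoniin, 53.8 in erlotinib, 57.2 with both drugs and 40.9 in control, with 1.40 (1.09 to 1.81) in combination. UQCRC1, a core subunit that does not take part in electron transfer, had 26.8 CPM in agrimoniin, 24.1 in erlotinib, 20.6 with both drugs and 26.4 in control, and its ratio of 0.778 (0.542 to 1.12) in combination holds 1.

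Complex II, succinate dehydrogenase, also belongs to the tricarboxylic acid cycle. Its 4 genes summed to 341 CPM in agrimoniin, 379.8 in erlotinib, 359 with both drugs and 321 in control, with ratios of 1.06 (0.969 to 1.16), 1.18 (1.08 to 1.29) and 1.12 (1.02 to 1.23). SDHA, the flavoprotein that oxidises succinate, had 36.6 CPM in agrimoniin, 40.0 in erlotinib, 47.3 with both drugs and 32.6 in control, with 1.45 (1.09 to 1.93) in combination. SDHB, the iron-sulphur subunit, had 118 CPM in agrimoniin, 129.8 in erlotinib, 109.7 with both drugs and 100.4 in control, with 1.29 (1.11 to 1.51) in erlotinib. SDHC, a membrane anchor, had 91.9 CPM in agrimoniin, 107 in erlotinib, 103 with both drugs and 81.8 in control, with 1.31 (1.10 to 1.56) for erlotinib and 1.26 (1.05 to 1.51) for combination. SDHD, the other anchor, had 94.6 CPM in agrimoniin, 103 in erlotinib, 98.7 with both drugs and 106 in control, and control was highest, with all 3 ratios holding 1, at 0.891 (0.756 to 1.05), 0.970 (0.827 to 1.14) and 0.930 (0.785 to 1.10).

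Complex I has the most nuclear members, and they lay on both sides of control. The sum was 3053 CPM in agrimoniin, 3125 in erlotinib, 3184 with both drugs and 3090.3 in control, and each ratio, 0.988 (0.959 to 1.02), 1.01 (0.982 to 1.04) and 1.03 (1.00 to 1.06), holds 1. These sums follow the gene symbols and count NDUFA4, now regarded as a subunit of complex IV, in complex I. With NDUFA4 counted in complex IV, an alternative added after the data were seen, the complex I ratios were 0.988 (0.959 to 1.02), 1.03 (0.995 to 1.06) and 1.04 (1.01 to 1.07), of which the last no longer holds 1, and those of complex IV were 0.990 (0.950 to 1.03), 1.06 (1.02 to 1.11) and 1.07 (1.03 to 1.12). Of 36 tested genes 19, 23 and 22 had a ratio above 1, beside 55.3%, 53.3% and 53% of all genes. NDUFB8 is an accessory membrane subunit (ENSG00000166136, chromosome 10, 100523740 to 100530000). Among the 76 nuclear members with a mean of at least 20 CPM, NDUFB8 had the lowest log2 ratio to control in agrimoniin and in erlotinib. It had 115 CPM in agrimoniin, 127 in erlotinib, 136 with both drugs and 170.2 in control, with ratios of 0.678 (0.591 to 0.778), 0.748 (0.655 to 0.856) and 0.797 (0.694 to 0.915). NDUFB9 had 71.0 CPM in agrimoniin, 91.1 in erlotinib, 95.5 with both drugs and 101 in control, and only in agrimoniin, with 0.701 (0.587 to 0.838), did the interval miss 1. NDUFV2, an iron-sulphur subunit of the NADH-oxidising module (ENSG00000178127, chromosome 18, 9102630 to 9134345), was lowest in combination, with 62.9 CPM in agrimoniin, 63.3 in erlotinib, 50.2 with both drugs and 75.2 in control. Its ratio was 0.667 (0.535 to 0.831) there, and 0.836 (0.686 to 1.02) and 0.842 (0.691 to 1.03) in agrimoniin and erlotinib. NDUFV1, the partner that binds NADH, had 42.5 CPM in agrimoniin, 43.7 in erlotinib, 39.2 with both drugs and 42.6 in control, and its 3 ratios of 1.00, 1.03 and 0.922 hold 1.

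Other complex I genes were low in some treated libraries. NDUFA5 had ratios of 0.785 (0.646 to 0.955), 0.837 (0.691 to 1.01) and 0.899 (0.738 to 1.10), and NDUFC2 had 0.845 (0.734 to 0.973), 0.848 (0.737 to 0.976) and 0.930 (0.806 to 1.07). NDUFA10 had 62.0 CPM in agrimoniin, 65.7 in erlotinib, 51.1 with both drugs and 63.6 in control, with 0.804 (0.640 to 1.01) in combination. On the high side, NDUFB2 had 110.3 CPM in agrimoniin, 145 in erlotinib, 131 with both drugs and 104 in control, with 1.40 (1.20 to 1.63) for erlotinib and 1.26 (1.08 to 1.48) for combination. NDUFA13, also known as GRIM19, had 28.7 CPM in agrimoniin, 23.6 in erlotinib, 27.3 with both drugs and 17.4 in control, with 1.66 (1.15 to 2.43) in agrimoniin and 1.58 (1.08 to 2.34) in combination. NDUFA9 had 32.5 CPM in agrimoniin, 31.5 in erlotinib, 25.1 with both drugs and 21.1 in control, with 1.54 (1.10 to 2.19) in agrimoniin and 1.50 (1.07 to 2.12) in erlotinib. NDUFA11 had 20.6 CPM in agrimoniin, 21.2 in erlotinib, 28.9 with both drugs and 16.5 in control, with 1.75 (1.19 to 2.61) in combination. These last 3 genes had 40 to 120 UMIs per library, so their intervals are wide. NDUFS1, the largest core subunit, had 128 CPM in agrimoniin, 124 in erlotinib, 129.9 with both drugs and 107 in control, with 1.20 (1.03 to 1.40), 1.16 (0.997 to 1.36) and 1.22 (1.04 to 1.43).

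Several OXPHOS subunits exist as paired isoforms, and the human parts held mainly RNA of the ubiquitous one. COX4I1 had 58.3 CPM in agrimoniin, 78.9 in erlotinib, 68.5 with both drugs and 61.6 in control, while COX4I2, its hypoxia- and lung-associated counterpart, had 0 UMIs in all 4 libraries. A count of 0 allows up to 0.813, 0.795 and 0.965 CPM in agrimoniin, erlotinib and combination and 1.24 in control, taking 3 counts as the limit per library. COX7A2 had 85.9 CPM in agrimoniin, 104 in erlotinib, 92.9 with both drugs and 91.7 in control, and COX7A1, the heart and muscle isoform, had 0 UMIs. COX6A2, also a heart and muscle isoform, had 1 UMI in erlotinib and 0 elsewhere, and COX6B2, a testis isoform, had 6, 1 and 2 UMIs in agrimoniin, erlotinib and combination and 2 in control. NDUFA4 had 203 CPM in agrimoniin, 168 in erlotinib, 187 with both drugs and 206 in control, with 0.819 (0.727 to 0.922) in erlotinib. NDUFA4L2, its hypoxia-inducible relative, had 11, 11 and 2 UMIs in agrimoniin, erlotinib and combination and 1 in control, and its ratios of 7.21 (1.05 to 311), 7.05 (1.02 to 304) and 1.56 (0.0810 to 91.8) rest on those few molecules. The germline or copy genes COX7B2, COX8C and ATP5MGL had at most 1 UMI per library.

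The remaining members under 20 CPM were ATP5F1D, NDUFB7, NDUFS7, UQCRHL and 3 non-coding genes. NDUFS7, a core iron-sulphur subunit, had 32, 28 and 19 UMIs in agrimoniin, erlotinib and combination and 10 in control, with ratios of 2.10 (1.01 to 4.79), 1.79 (0.846 to 4.14) and 1.48 (0.654 to 3.56). UQCRHL, a retained copy of UQCRH, had 13, 15 and 23 UMIs in agrimoniin, erlotinib and combination and 4 in control, with ratios of 2.13 (0.658 to 8.97), 2.40 (0.766 to 9.95) and 4.48 (1.53 to 17.8), and its reads cannot be told from UQCRH with certainty. UQCRH itself had 369.8 CPM in agrimoniin, 370.3 in erlotinib, 383 with both drugs and 381 in control, with 1.00 in combination. NDUFB2-AS1, NDUFV2-AS1 and NDUFA6-DT, which the naming rule takes in though they encode no subunit, had 0.542 to 11.6 CPM, with NDUFV2-AS1 at 6.23 CPM in agrimoniin, 6.89 in erlotinib, 7.08 with both drugs and 11.6 in control. In GENCODE 29, 46 of the nuclear members and all 13 MT- genes have pseudogenes named after them, 554 in all, and none of these is among the features counted. Reads from such copies may have been lost or assigned to the parent, which was not tested.

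Relative to erlotinib, the combination had a nuclear sum ratio of 1.00 (0.985 to 1.01) and an MT sum ratio of 0.984 (0.979 to 0.989). A ratio above 1 was found for 39 of 76 nuclear members, against 48.8% of all genes. At least 25% higher were 1 of 76 nuclear members and at least 20% lower 4, against 7.68% and 8.28% of all genes. Ranked by log2 ratio with a pseudocount of 10 CPM, NDUFA11 and NDUFAB1, the mitochondrial acyl carrier protein, were the highest, with plain ratios of 1.37 (1.00 to 1.87) and 1.21 (1.07 to 1.38), and COX5A and NDUFA10 the lowest, with 0.771 (0.662 to 0.897) and 0.778 (0.634 to 0.954). MT-ATP8 was at 815 CPM in combination, against 938 in erlotinib, a ratio of 0.869 (0.825 to 0.915), and MT-CO1 was at 20061 CPM in combination, against 19458 in erlotinib, a ratio of 1.03 (1.02 to 1.04). The pooled MT sum thus hides members on both sides of 1.

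Against agrimoniin the nuclear sum of the combination had a ratio of 1.07 (1.05 to 1.08) and the MT sum 0.936 (0.931 to 0.940). A ratio above 1 was found for 45 of 76 nuclear members, against 46% of all genes. At least 25% higher were 9 nuclear members and at least 20% lower 5, against 5.88% and 8.09% of all genes. By the same ranking COX7A2L and NDUFB9 were the highest, with plain ratios of 1.39 (1.27 to 1.51) and 1.35 (1.14 to 1.59), and CYC1 and NDUFS8, a core subunit of complex I, the lowest, with 0.750 (0.618 to 0.909) and 0.774 (0.611 to 0.978). Genes with fewer UMIs had plain ratios beyond some of these, at 1.41 (1.02 to 1.93) for NDUFA11, 1.37 (1.06 to 1.76) for UQCR10, 0.767 (0.551 to 1.06) for UQCRC1 and 0.771 (0.573 to 1.03) for NDUFA9. Among the MT- genes, MT-ND4L had 0.837 (0.808 to 0.868), MT-CYB 0.886 (0.870 to 0.902) and MT-CO2 0.880 (0.863 to 0.897), while MT-ATP8 had 1.01 (0.955 to 1.06) and MT-ND3 0.997 (0.979 to 1.01). The complex IV nuclear sum was higher in combination, at 1.10 (1.06 to 1.15), and the complex IV MT- sum lower, at 0.928 (0.921 to 0.935). COX7A2L, counted in that nuclear sum, had 371 CPM in combination against 268 in agrimoniin, beside nuclear sums of 1509.9 and 1366 CPM. The sum without COX7A2L was not computed. Of the 11 tested nuclear genes of complex IV, 7 had a ratio above 1, against 46% of all genes.

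Genes that serve the chain without being subunits are given by list, and no list was tested. Over all 7172 genes, 55.3%, 53.3% and 53% had a ratio above 1 in agrimoniin, erlotinib and combination, 10.6%, 11.1% and 10.4% were at least 25% higher, and 7.03%, 9.3% and 9.41% at least 20% lower. Of 30 tested assembly factors, 13 had a ratio above 1 in agrimoniin, 15 in erlotinib and 19 in combination, with median log2 ratios of -0.02, 0.01 and 0.05, and 3, 5 and 1 were at least 25% higher and 0, 1 and 2 at least 20% lower. NDUFAF4, a complex I assembly factor, was lower in erlotinib, at 0.695 (0.529 to 0.914), and in combination, at 0.661 (0.493 to 0.884). On the high side, COX14 had 1.53 (1.08 to 2.20) and COX10 1.40 (1.08 to 1.84) in erlotinib, and PET100 had 1.37 (1.11 to 1.70) in combination. Of 20 tested genes of the tricarboxylic acid cycle and pyruvate entry, 15, 15 and 14 had a ratio above 1, with 6, 6 and 3 at least 25% higher and 1, 1 and 1 at least 20% lower. The median log2 ratios were 0.16, 0.22 and 0.12, beside 0.03, 0.02 and 0.02 over all genes. MDH2, malate dehydrogenase, had a ratio of 1.37 (1.10 to 1.73) in agrimoniin, from 64.8 CPM there, against 47.1 in control. SUCLG2, a subunit of succinyl-CoA ligase, had 1.40 (1.22 to 1.61) in erlotinib, and DLD, the shared E3 subunit of the oxo acid dehydrogenases, had 1.68 (1.22 to 2.34) in combination. DLST, the succinyltransferase of the oxoglutarate dehydrogenase complex, was lowest of this list in all 3, at 0.665 (0.477 to 0.927), 0.795 (0.580 to 1.09) and 0.727 (0.517 to 1.02).

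Genes for the upkeep and expression of mitochondrial DNA had a ratio above 1 for 9, 13 and 8 of 20, with median log2 ratios of -0.03, 0.03 and -0.08, and 3, 3 and 0 were at least 25% higher and 2, 1 and 5 at least 20% lower. The shares over all genes beside these counts are 55.3%, 53.3% and 53% above 1, 10.6%, 11.1% and 10.4% at least 25% higher, and 7.03%, 9.3% and 9.41% at least 20% lower. TFB2M, a transcription factor of mitochondrial DNA, had a ratio of 0.736 (0.571 to 0.950) in combination, from 39.6 CPM there, against 53.7 in control. On the high side in combination, TUFM of the same list had 1.19 (1.06 to 1.33). In agrimoniin TSFM, a mitochondrial translation elongation factor, had 1.56 (1.18 to 2.10), and FASTKD5 of the same list was lower, at 0.715 (0.519 to 0.988). Among 7 tested regulators of mitochondrial content, 2, 2 and 4 had a ratio above 1, with median log2 ratios of -0.08, -0.06 and 0.01, and 0, 1 and 1 were at least 25% higher and 0, 1 and 0 at least 20% lower. GABPA, an ETS factor of many OXPHOS promoters, had 1.22 (1.03 to 1.45), 1.254 (1.06 to 1.49) and 1.23 (1.03 to 1.47). On the low side of that list, MYC, a growth-promoting transcription factor, had 0.767 (0.633 to 0.931) and NFE2L2, a regulator of the oxidative stress response, 0.822 (0.735 to 0.9196) in erlotinib, and PPRC1, a coactivator related to PGC-1, had 0.854 (0.723 to 1.01) in agrimoniin and 0.830 (0.697 to 0.989) in combination. Of 17 tested carriers and related genes, 13, 14 and 11 had a ratio above 1, with median log2 ratios of 0.11, 0.10 and 0.18, and 1, 4 and 3 were at least 25% higher and 0, 1 and 1 at least 20% lower. HIGD2A, an assembly factor of complex IV, was on the low side, with 0.730 (0.559 to 0.954) in erlotinib and 0.735 (0.555 to 0.973) in combination. UCP2, an inner membrane carrier, had 1.78 (1.30 to 2.48) in erlotinib, from 39.7 CPM there, against 22.3 in control, and 1.77 (1.28 to 2.49) in combination, and SLC25A5, the adenine nucleotide translocator 2, had 1.31 (1.18 to 1.45) in erlotinib.

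In the mouse parts of the same barcodes the combination library differed in direction from the tumour parts. Host mt- genes made up 4.30% (4.27 to 4.34) of mouse UMIs in agrimoniin, 3.70% (3.67 to 3.73) in erlotinib, 4.70% (4.66 to 4.75) in combination and 4.39% (4.36 to 4.43) in control. Their ratios to control were 0.980 (0.968 to 0.992), 0.842 (0.832 to 0.852) and 1.07 (1.06 to 1.08). The host share was thus lower in erlotinib, as in tumour parts, but higher in combination, where the tumour share was lowest. Mouse complex V genes mostly carry older names that the rule does not match, and the few that it matched were left out. Over nuclear genes of complexes I to IV the host ratios were 0.971 (0.936 to 1.01), 1.01 (0.978 to 1.05) and 0.962 (0.923 to 1.00). The tumour ratios over the same complexes were 1.00 (0.982 to 1.02), 1.06 (1.04 to 1.08) and 1.06 (1.04 to 1.08). Across barcodes the tumour and host mitochondrial shares had Pearson's r of -0.05, 0.03 and -0.03 in agrimoniin, erlotinib and combination, and 0.13 in control. Macrophage markers (Ptprc, Lyz2, C1qa and Adgre1) summed to 3792 CPM of mouse UMIs in agrimoniin, 4568 in erlotinib, 3689 with both drugs and 3119 in control. Adgre1 alone went the other way in combination, at 81.0 CPM against 131 in control. Fibroblast markers (Col1a1, Col3a1, Dcn and Pdgfra) summed to 21813.5 CPM in agrimoniin, 25694.7 in erlotinib, 25453.5 with both drugs and 24959.5 in control. Most of that was Col1a1, at 16396.9, 20070.4, 20903 and 19842.5 CPM in that order. Against the lower sum in agrimoniin, Dcn was higher, at 466 against 209 CPM in control, and so was Col3a1, at 4847 against 4799. Against the higher sums, Col3a1 was lower in combination, at 4148 CPM. Pdgfra was lower in combination, at 88.9, and in erlotinib, at 83.8, against 110 in control. Endothelial markers (Pecam1, Cdh5 and Kdr) summed to 113 CPM in agrimoniin, 50.6 in erlotinib, 50.6 with both drugs and 64.3 in control. These sums rest on only 151, 70, 45 and 74 UMIs in that order. Kdr went the other way in agrimoniin, at 16.4 CPM against 26.1 in control. Pecam1 in erlotinib was near control, at 26.0 against 26.1 CPM, and Cdh5 in combination was higher, at 13.5 against 12.2. The part of these cell types in the host values was not tested.

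**Figure D5:**
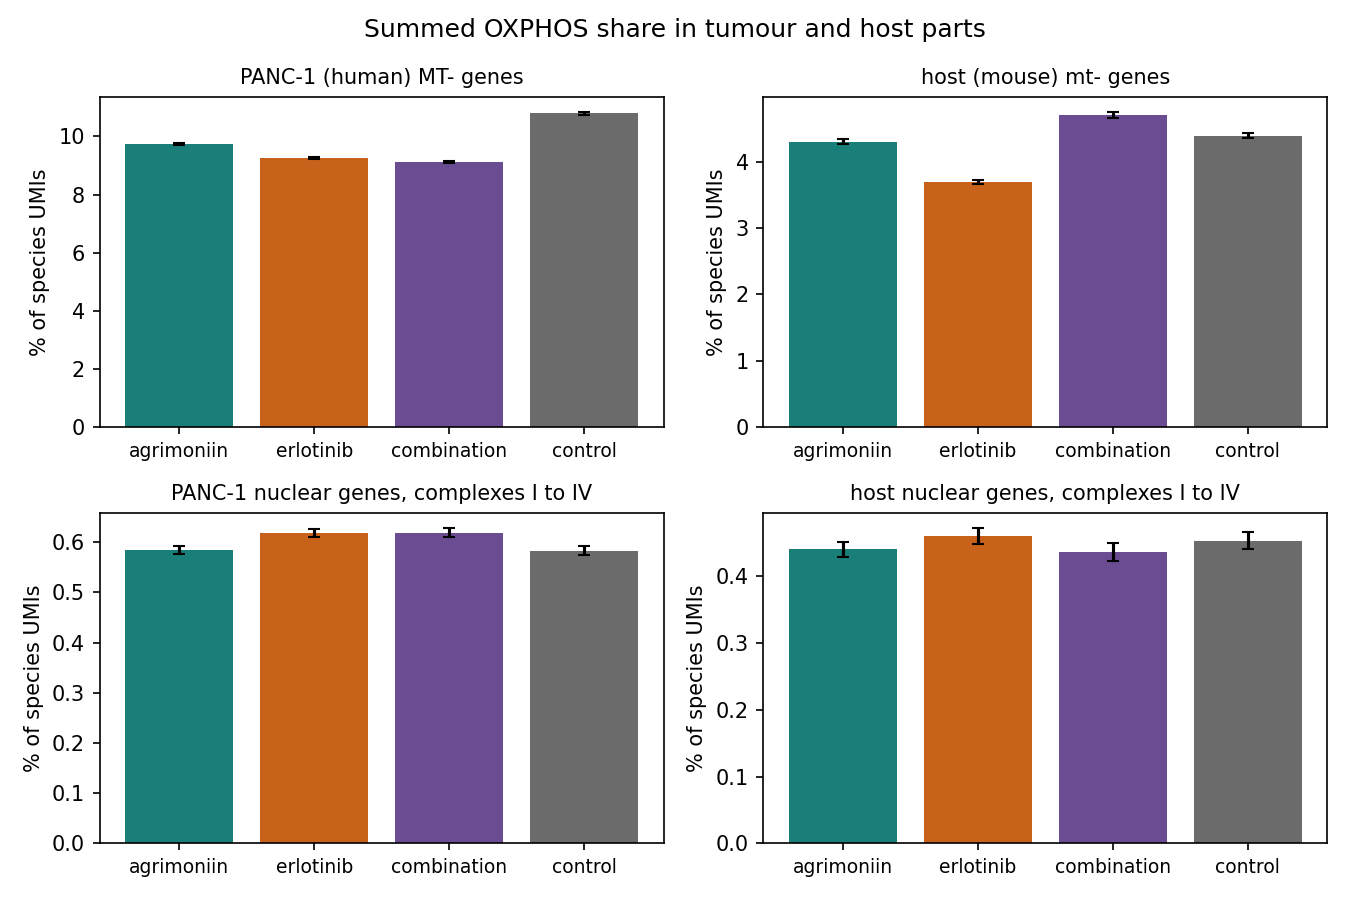
Summed share of UMIs of each species (percent) from mitochondrially encoded OXPHOS genes (top) and nuclear genes of complexes I to IV (bottom), in PANC-1 parts (left) and host parts (right) of the 4 libraries; bars start at 0 and error bars are exact 95% intervals (counting error only). PANC-1 MT- shares are highest in control, at 10.8%, whereas the host share is highest in combination, at 4.70%.

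In single human parts the nuclear members could be set beside the MT- genes of the same barcode. Pearson's r between the nuclear and the MT- share over human parts was -0.06 in agrimoniin, -0.00198 in erlotinib, 0.22 in combination and -0.15 in control, as a description of 283, 292, 245 and 193 parts. Both shares have the same denominator. With nuclear UMIs taken per human UMI outside the MT- genes, r was 0.09 in agrimoniin, 0.17 in erlotinib, 0.36 in combination and 0.03 in control. The negative signs thus depend on the denominator. The nuclear share of the median part was 0.895%, 0.937% and 0.947% in agrimoniin, erlotinib and combination and 0.885% in control, from a median of 115, 108, 116 and 100.0 UMIs in the same order. No part had 0 nuclear OXPHOS UMIs, and the lowest held 7, 2 and 9 UMIs in agrimoniin, erlotinib and combination and 13 in control. Variance between parts was 11.0, 11.3 and 10.9 times the binomial expectation, against 11.0 in control, so this ratio was close in all 4 libraries. The single part with the most nuclear OXPHOS UMIs gave 0.998%, 1.08% and 1.03% of them, against 1.74% in control, so no library total rests on 1 barcode.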

How the data were processed

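The submitters' processing notes name Cell Ranger, with no version, and the builds hg38 and mm10. The authors deposited raw UMI counts per gene and barcode over 68886 features. The members and lists were chosen with earlier results of these data known. Human parts entered if they had 500 or more UMIs, 250 or more genes and no more than 25% MT- UMIs, leaving 1013 parts with 12996396 human UMIs, and doublets were not called because every barcode held both species. Counts were summed over the parts of a library and scaled to CPM of human UMIs. They were not divided by gene length, since a 3 prime kit counts ends, so a gene is compared across libraries and not with other genes. No test was made, since each group is 1 library. Ratios have exact 95% intervals conditional on the sum of both counts, and log2 ratios use a pseudocount of 10 CPM. The interval calculation was run on simulated counts that held counting error only. That run says nothing on coverage under the variation between parts seen here. Genes with a mean of at least 20 CPM were set against limits of 25% higher and 20% lower. Named were all MT- genes, the 5 highest and 5 lowest nuclear members against control by that log2 ratio, the 2 highest and 2 lowest against each single drug, isoform pairs and complex II; other members were chosen after their values were seen. From each pathway list, genes were taken from the 2 highest and 2 lowest in a comparison. Gene positions and MT- sequences are from GENCODE 29 (GRCh38), where all 104 members were found by identifier. Python 3.11.15, numpy 2.4.6, scipy 1.17.1 and pandas 2.3.3 were used. Alternatives varied the MT- limit, human share, part size, weighting, denominator, minimum and pseudocount.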

Additional observations from a re-analysis of the deposited data

Results flagged for a closer look

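None of these differences was tested, since each rests on single libraries. In each, the same contrast had intervals on opposite sides of 1 in a pair of settings. In the combination against control, the MT sum had a ratio of 0.844 in human parts and 1.07 in mouse parts. Adding agrimoniin gave ATP5MF a ratio of 1.21 without erlotinib and 0.833 with it, and gave MT-CO1 0.917 without erlotinib and 1.03 with it. Adding erlotinib gave CYC1 a ratio of 1.31 (1.05 to 1.65) without agrimoniin and 0.750 with it, and gave NDUFB8 0.748 without agrimoniin and 1.18 with it. The 4 gene results came from comparing all 89 members with a mean of at least 20 CPM, each in 2 pairs of contrasts. The share of all tested genes that meet the same rule was not computed, so these results cannot be called particular to OXPHOS genes. The paired comparisons use all 4 libraries, so a deviation of any library enters.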

How the results depend on the processing

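No paired analysis was possible because each group has a single library. The values below are ratios of summed CPM unless named otherwise, in the order agrimoniin, erlotinib and combination against control, then combination against erlotinib and against agrimoniin. The cause of each shift was not tested. Reversed means only that a value passed to the other side of 1, and these values carry no interval. The 10% limit was not applied to the MT sum, which it acts on directly. All 24 values for complex II stayed within the counting intervals of the reported ratios. For the MT sum, without the MT- limit the last 4 were 0.873, 0.827, 0.948 and 0.919. With barcodes of 75% human UMIs or more, the values for agrimoniin and combination against control were 0.913 and 0.883, and those for combination 1.02 against erlotinib, which reversed, and 0.967 against agrimoniin. As a mean over parts they were 0.909, 0.845 and 0.828, and 0.911 for combination against agrimoniin. With MT- genes out of the denominator they were 0.892, 0.844 and 0.828, and 0.929 for combination against agrimoniin. Without the part with the most MT- UMIs in each library erlotinib against control was 0.864. In parts of 8000 to 16000 human UMIs, an alternative chosen after seeing the data, all 5 were 0.981, 0.874, 0.874, 1.0006, just past 1, and 0.891. For the nuclear sum in that window the first 4 were 0.964, 1.01, 1.03 and 1.02, and with an MT- limit of 10% they were 0.954, 1.06, 1.03 and 0.977. With MT- genes out of the denominator erlotinib and combination against control were 1.07 and 1.06, and as a mean over parts combination against agrimoniin was 1.08. Among complexes in the window of 8000 to 16000, complex I was 0.958 in erlotinib and 0.969 in combination. Complex III was 0.941 in agrimoniin, and passed just below 1, to 0.988 in erlotinib and 0.998 in combination. Complex IV was 1.03 in erlotinib and 1.04 in combination, and complex V reversed to 0.977 in agrimoniin and was 1.05 in erlotinib and 1.09 in combination. With an MT- limit of 10%, complexes I, III and IV in agrimoniin were 0.943, 0.981 and 0.916, complex V in agrimoniin reversed to 0.966, and complexes I and V in combination were 0.992 and 1.05. Complex III in erlotinib was 1.18 in barcodes of 75% human UMIs or more. With NDUFA4 counted in complex IV, complex I in combination was 1.04, with an interval that no longer held 1. The median log2 ratio of nuclear members in the 75% subset was 0.0794 in agrimoniin, 0.0862 in erlotinib and -0.0156 for combination against erlotinib. Over genes of at least 100 CPM the median was 0.117 for combination against control, 0.0308 against erlotinib and 0.0868 against agrimoniin. With no minimum it was 0.0895 in erlotinib and 0.0185 for combination against agrimoniin, and with MT- genes out of the denominator 0.0885 in erlotinib. The count of nuclear members with a ratio above 1 among the 36 of at least 100 CPM was 21, 25, 26, 22 and 25. The share of all genes above 1 at that minimum was not computed. Ratios of genes under 20 CPM have wide counting intervals.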
